A study of Mus musculus with 10 samples.

Results

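The NMDA receptor subunit genes were followed in 10 single inspiratory neurons of the preBötzinger complex (preBötC), the brainstem site that generates the inspiratory rhythm. The members were the 7 genes that encode the subunits, taken by name (Grin1, Grin2a, Grin2b, Grin2c, Grin2d, Grin3a and Grin3b), out of 55367 genes listed in the deposited files. All 7 were found. Each neuron was recorded in a slice from a mouse pup aged P0 to P3, its contents were drawn into the patch pipette, and 1 library was made from it (Patch-Seq). The labels give 4 Type-1 neurons (samples 4, 5, 6 and 7), which start to depolarize early before the inspiratory burst, 1 Type-2 neuron (sample 1), which starts late, and 5 Unknown neurons (samples 2, 3, 8, 9 and 10) that could not be classed. Samples 1, 5, 6 and 7 are labelled Dbx1-derived: they came from offspring of Dbx1cre and Ai148 mice, on a C57Bl/6J or mixed C57Bl/6J and CD1 background, in which Cre driven by the Dbx1 promoter switches on the calcium indicator GCaMP6f in cells descended from Dbx1-expressing precursors. The other 6 neurons are labelled WT and came from CD-1 mice without a reporter. Samples 1, 3, 5 and 8 were P0, sample 10 was P1, samples 2 and 9 were P2, and samples 4, 6 and 7 were P3. No agent separated the groups. The labels name no animal and each sample is 1 neuron, so the groups are described without tests or p-values.

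NMDA receptors are glutamate-gated channels that admit calcium and are blocked by magnesium at rest, so that they pass current when glutamate is present and the membrane is already depolarized. Every such receptor needs GluN1 (Grin1), which binds the co-agonist glycine or D-serine. GluN2 subunits bind glutamate and set the kinetics: GluN2A (Grin2a) closes fast and becomes common after birth, GluN2B (Grin2b) is slower and is present from embryonic stages, and GluN2C (Grin2c) and GluN2D (Grin2d) give channels with weaker magnesium block, GluN2D being known from the embryonic and neonatal brainstem. GluN3A (Grin3a), which is most abundant in early postnatal life, and GluN3B (Grin3b), known from motoneurons, bind glycine and lower calcium permeability.

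The genes lie on 7 chromosomes of GRCm38 (GENCODE M21): Grin1 on chromosome 2 (25291181 to 25319187, minus strand), Grin2a on chromosome 16 (9567898 to 9995560, minus), Grin2b on chromosome 6 (135713233 to 136173511, minus), Grin2c on chromosome 11 (115249169 to 115267243, minus), Grin2d on chromosome 7 (45831883 to 45878378, minus), Grin3a on chromosome 4 (49661611 to 49845744, minus) and Grin3b on chromosome 10 (79970715 to 79977190, plus). The 21 coding bases of the motif at the gate end of the third membrane segment are given below from the GENCODE M21 transcripts. They are written 5′ to 3′ on the coding strand, with the bases that are the same in all 7 genes in capitals. The motif was found by searching each gene for the same amino acids. The aim was to show how alike the coding bases are there and that fragments can still be told apart. Each stretch lies inside 1 coding exon.
Grin1, exon 15, chr2:25297202-25297222: TAcACtGCcAAccTgGCaGCc
Grin2a, exon 10, chr16:9653450-9653470: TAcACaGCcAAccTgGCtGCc
Grin2b, exon 10, chr6:135772247-135772267: TAcACtGCcAActTaGCcGCc
Grin2c, exon 11, chr11:115253752-115253772: TAcACgGCcAAtcTgGCaGCc
Grin2d, exon 8, chr7:45854282-45854302: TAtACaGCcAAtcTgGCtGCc
Grin3a, exon 3, chr4:49770473-49770493: TAcACaGCgAActTgGCtGCt
Grin3b, exon 3, chr10:79974639-79974659: TAcACaGCcAAccTgGCaGCt
In this motif 13 of the 21 bases were shared by all members, and Grin1 shared between 16 (Grin3a) and 19 bases (Grin2a, Grin2c and Grin3b) with another member. The 13 shared bases are those that the same amino acids fix. Their count was thus set by the search and measures no conservation. Over whole transcripts the genes separated: 0 words of 50 bases occurred in 2 of the 7 genes, and reads were 150 bases long. Words shared with genes outside the family are given beside the genes they touch.

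The libraries held between 21392146 and 36629393 fragments counted on genes. FPKM, the deposited unit, is fragments per kilobase of gene length and per 1000000 of these fragments, so it may be compared between genes, and 1 FPKM or more is called detected here. Between 5055 and 9307 genes reached 1 FPKM per neuron, with samples 1, 2, 3 and 9 lowest (5055 to 6632) and sample 4 at 6795. Of 8 genes listed as markers of neurons, at least 6 reached 1 FPKM in each library, but their summed level was 58.4 FPKM in sample 4 and between 761 and 4670 FPKM in the other 9. All 8 microglia markers reached 1 FPKM in samples 2 and 4, with summed levels of 2039 and 15398 FPKM against 0.685 to 492 FPKM elsewhere. Astrocyte markers were most complete in samples 2, 3 and 8, where 8, 9 and 10 of 10 reached 1 FPKM, and all 4 cholinergic markers reached it in sample 9 alone. Of 4 endothelial markers, none reached it in any library, and 3 had 0 fragments in all 10. The library labelled Type-1 that came from a WT mouse (sample 4) therefore carried few transcripts of neuronal markers, and counts that it entered are given also without it where they change. Whether RNA from other cells took part in any level reported here was not tested.

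Of the 70 values (7 genes in 10 neurons), 28 were at 1 FPKM or more, 21 were at 0 fragments and 21 lay between. The detected values rested on at least 336 fragments and began at 1.14 FPKM, while the highest value under 1 was 0.699 FPKM. That value was Grin2b in sample 6, from 547 fragments, so the limit cut through the values of Grin2b. Its count was 5 neurons at 1 FPKM and 8 at 0.1 FPKM. Of the 21 values between, 15 rested on 1 to 15 fragments, and the other 6 on 40 or more. Libraries can hold a few fragments of one another. Rates were taken from 19 genes that were nearly private to 1 library, which 5 libraries had. Each had at least 10000 fragments there and at most 1% of that in each other library. Relative to the fragments of these genes in their own library, between 0% and 0.129% were found in another, with a mean of 0.0242%. Libraries without such a gene were given the mean. At the highest of these rates, 13 of the 15 values of 1 to 15 fragments were no larger than the number expected from the other 9 libraries. The remaining values were the 4 fragments of Grin2c in sample 2 and the 1 fragment of Grin3b in sample 8.

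**Figure D1:**
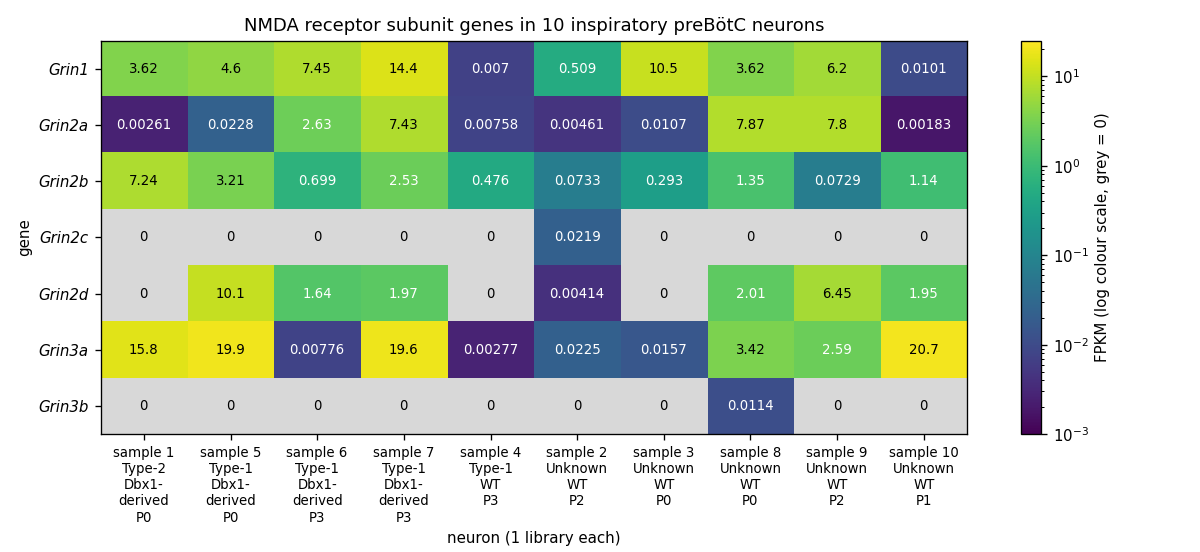
Level of each of the 7 NMDA receptor subunit genes (vertical axis) in each of the 10 neurons (horizontal axis, with electrophysiological type, label and age), as FPKM written in each cell and coloured on a log scale, with grey for 0 fragments. Grin1 and Grin3a hold most of the highest values, Grin2a is at 2.63 FPKM or more in 4 neurons and does not pass 0.0228 FPKM in the other 6, and Grin2c and Grin3b are nearly empty.

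Of the 7 genes, 5 were detected in 4 or more neurons and 2 in none. Grin1 was at 1 FPKM or more in 7 neurons, Grin2d and Grin3a in 6, Grin2b in 5 and Grin2a in 4, while Grin2c and Grin3b reached that level in 0 neurons. Thus 4 of the 7 members were detected in at least 5 of the 10 neurons, where 13.6% of all 55367 genes were. In at least 6 neurons it was 3 members, beside 11.2% of genes, and in at least 8 it was 0 members, beside 6.67%. Leaving out sample 4, which detected none of them, changed no count, and without samples 1 to 4, which the study sets apart for lower expression, Grin2d was detected in 6 of 6 neurons, Grin1 and Grin3a in 5, Grin2a in 4 and Grin2b in 4. Per length, Grin3a had the highest mean, 8.21 ± 9.45 FPKM (SD, n = 10 neurons), followed by Grin1 (5.09 ± 4.71), Grin2a (2.58 ± 3.63), Grin2d (2.41 ± 3.33) and Grin2b (1.71 ± 2.21). By the median the order differed, with Grin1 first at 4.11 FPKM, then Grin3a at 3.01, Grin2d at 1.79, Grin2b at 0.921 and Grin2a at 0.0168. This order depended on the neurons used: without samples 1 to 4 the medians were 11.5 FPKM for Grin3a, 5.4 for Grin1, 5.03 for Grin2a, 1.99 for Grin2d and 1.25 for Grin2b. The SD equalled or exceeded the mean in each gene but Grin1, so the means of neighbouring genes did not differ beyond the spread between neurons.

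Grin1 encodes the subunit that no NMDA receptor can do without. Its level in the Type-2 neuron, sample 1, was 3.62 FPKM. Of the Type-1 neurons, samples 5, 6 and 7 held 4.6, 7.45 and 14.4 FPKM and sample 4 held 0.007 FPKM. In the Unknown samples 2, 3, 8, 9 and 10 it was at 0.509, 10.5, 3.62, 6.2 and 0.0101 FPKM. All 4 Dbx1-derived neurons were thus at 3.62 FPKM or more, and the WT neurons were spread from 0.007 to 10.5 FPKM, so the ranges overlapped. In FPKM, the order from sample 7 down to sample 5 (7, 3, 6, 9, 5) had exact 95% Poisson intervals that did not touch. Examples were 13.9 to 14.9 FPKM in sample 7 and 10.1 to 10.9 in sample 3. Samples 1 (3.36 to 3.89) and 8 (3.39 to 3.86) could not be told apart in FPKM. These intervals, like the others below, cover counting error only, since the reads carry no molecular identifiers. The order between neurons also depended on the unit. TPM rescales the per-length levels so that they have the same sum in each library. In TPM, sample 6 (22.4) lay above sample 3 (19.5), and sample 5 (13.5) above sample 9 (12.4). Sample 7 stayed highest at 41.4 TPM, and samples 1 and 8 were at 10.7 and 8.77 TPM.

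In 2 neurons Grin1 rested on hardly any fragments: 2 in sample 4 and 3 in sample 10, against 2.63 and 2.96 expected from the other libraries. This expectation used the measured rates, and the mean rate for libraries where none was measured. Sample 4 had few neuronal transcripts in general, but sample 10 did not. Of the 8 neuron markers, 7 reached 1 FPKM in sample 10 and 1 had 0 fragments, with a summed level of 2672 FPKM. In this library 9222 genes reached 1 FPKM, and 3 other subunit genes were detected, with Grin3a the highest of any neuron. The deposited length of Grin1, 9700 bases, is 2.27 times that of its longest coding transcript (4276 bases), which lowers its FPKM: with the transcript length its median was 9.33 FPKM. An antisense gene, Grin1os, overlaps Grin1 and holds 71, 109 and 97 fragments in samples 6, 7 and 8, where Grin1 has 2275, 3586 and 933. Of the 50-base words of Grin1 transcripts, 8.24% also occur in another gene, nearly all of them in Grin1os, and whether counting used strand is not stated.

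**Figure D2:**
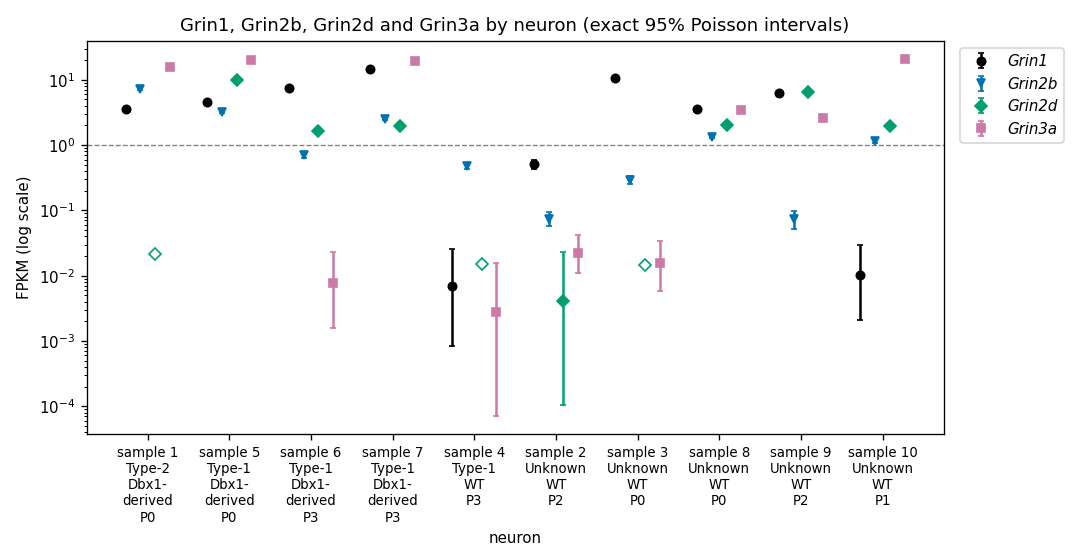
Level of Grin1, Grin2b, Grin2d and Grin3a (vertical axis, FPKM on a log scale) in each neuron (horizontal axis). Filled symbols carry exact 95% Poisson intervals of the fragment count, open symbols mark the 3 fragments that a count of 0 allows, and the dashed line is 1 FPKM. Grin3a and Grin1 part in sample 10 (20.7 against 0.0101 FPKM) and, the other way, in sample 6 (0.00776 against 7.45 FPKM).

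Grin2a, the subunit gene of mature synapses, was either well detected or nearly absent. Samples 6 and 7, both Type-1, held 2.63 and 7.43 FPKM, and samples 8 and 9, both Unknown, held 7.87 and 7.8 FPKM. The remaining neurons had 0.00261 (sample 1), 0.00461 (sample 2), 0.0107 (sample 3), 0.00758 (sample 4), 0.0228 (sample 5) and 0.00183 FPKM (sample 10). In FPKM, samples 7, 8 and 9 lay close together. The intervals of samples 8 (7.62 to 8.13 FPKM) and 9 (7.53 to 8.08 FPKM) overlapped each other and that of sample 7 (7.18 to 7.68 FPKM). In TPM these samples were farther apart, at 21.3 (sample 7), 19.1 (sample 8) and 15.6 (sample 9). The 6 low values rested on 1 to 15 fragments, against 1487 to 3751 in the 4 detected neurons, and no neuron lay between. By age, Grin2a was detected in 1 of 4 neurons at P0 (sample 8), in 0 of 1 at P1, and in 3 of 5 at P2 and P3, the other 2 of those being samples 2 and 4, whose libraries held all the microglia markers. A processed pseudogene, Gm7328 (chromosome 8, 56952829 to 56955053), is near-identical to part of Grin2a: 11.6% of the 50-base words of Grin2a also occur in Gm7328 or Aoc2. Gm7328 drew 297 fragments in sample 7 and 0 in the other neurons, beside 3422 Grin2a fragments there, and how the counting treated reads that match both is not stated.

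Grin2b, the subunit gene of immature synapses, had fragments in all 10 neurons, from 40 to 3845, and every one of these counts was above the 9.73 to 14.6 expected at the highest rate between libraries. It was highest in the Type-2 neuron, sample 1, at 7.24 FPKM. The Type-1 neurons had 3.21 (sample 5), 0.699 (sample 6), 2.53 (sample 7) and 0.476 FPKM (sample 4). In the Unknown neurons it was at 0.0733 (sample 2), 0.293 (sample 3), 1.35 (sample 8), 0.0729 (sample 9) and 1.14 FPKM (sample 10). Samples 1, 5 and 7, all Dbx1-derived, were the highest 3, and their intervals did not touch (7.01 to 7.47, 3.09 to 3.33 and 2.41 to 2.65 FPKM), while samples 2 (0.0567 to 0.0932) and 9 (0.0521 to 0.0993) at the low end could not be told apart. Grin2b has the longest deposited length of the family, 24842 bases. In fragments per 1000000, not divided by length, its median was 22.9, above that of Grin2d at 12, whereas per length it stood below Grin2d. The antisense gene Gm14330, which lies within Grin2b on the opposite strand, had 484 of its 563 fragments in sample 1 and shares no 50-base word with Grin2b transcripts.

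Grin2d was at 10.1 FPKM in sample 5 and at 6.45 FPKM in sample 9. It lay between 1.64 and 2.01 FPKM in samples 6, 7, 8 and 10 (1.64, 1.97, 2.01 and 1.95 FPKM), where the 4 intervals overlapped and spanned 1.47 to 2.23 FPKM. Samples 1, 3 and 4 had 0 fragments, which allows up to 3 fragments, and sample 2 had 1. Samples 1 to 4 are those that the study sets apart for lower expression, and in samples 5 to 10 Grin2d held 336 fragments or more. Whether library quality took part was not tested. Samples 8 and 10, alike in Grin2d, differed in transmitter genes: sample 8 had 230 FPKM of Slc17a6, a vesicular glutamate transporter, beside 8.28 FPKM of Gad1, which makes GABA, and sample 10 had 0.0303 and 92 FPKM. Gm45441, an antisense gene at the 3′ end of Grin2d, accounts for the 7.57% of Grin2d words found in another gene, and it had 404 fragments in sample 9 and 0 elsewhere, beside 948 Grin2d fragments there.

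Grin3a reached the highest levels of the family. Sample 1, the Type-2 neuron, held 15.8 FPKM. Among Type-1 neurons, samples 5 and 7 held 19.9 and 19.6 FPKM, and the highest value, 20.7 FPKM, belonged to sample 10, an Unknown neuron. Samples 8 and 9 had 3.42 and 2.59 FPKM. Samples 2, 3, 4 and 6 had 0.0225, 0.0157, 0.00277 and 0.00776 FPKM, from 10, 6, 1 and 3 fragments. There were thus 3 levels, at 15.8 to 20.7 FPKM, at 2.59 to 3.42 FPKM and at 0.0225 FPKM or less, with no neuron between them. The intervals of samples 5 (19.5 to 20.3 FPKM) and 7 (19.1 to 20.1 FPKM) overlapped. Where it was high, Grin3a lay at percentiles 73.8 to 77.1 of the genes with a fragment in that neuron. Sample 6 was the only Dbx1-derived neuron at the lowest level, although 8817 genes reached 1 FPKM in it and its Grin1 was at 7.45 FPKM. No 50-base word of Grin3a was found in another gene. Its deposited length is 1.64 times that of its longest coding transcript.

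Grin2c and Grin3b were the silent members. Grin2c had 4 fragments in sample 2 (0.0219 FPKM) and 0 in the other 9 neurons, and Grin3b had 1 fragment in sample 8 (0.0114 FPKM) and 0 in the other 9. A count of 0 allows up to 3 fragments per library. These lengths, 5037 and 3296 bases, are the shortest of the family, so 3 fragments stand for a higher FPKM than in the longer genes. In sample 9, which carried all 4 cholinergic markers (Slc18a3, a vesicular acetylcholine transporter, was at 444 FPKM), Grin3b had 0 fragments. Of the Grin3b words, 23.6% also occur in Tmem259, a gene on the opposite strand that had up to 2621 fragments.

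The balance of the Grin2 genes was then taken within each neuron, as shares of summed Grin2 FPKM, in the 9 neurons with at least 100 Grin2 fragments. Sample 2 had 74 and was left out. The largest share was Grin2a in 4 neurons (samples 6, 7, 8 and 9), Grin2b in 3 (samples 1, 3 and 4) and Grin2d in 2 (samples 5 and 10). Without sample 4, Grin2b led in 2 of 8 neurons. In samples 6, 7, 8 and 9, Grin2a made up 53, 62.3, 70.1 and 54.5%. In samples 5 and 10, Grin2d made up 75.8 and 63% and Grin2b 24 and 36.9%, with Grin2a at 0.171 and 0.059%. In sample 1, Grin2a was 0.036% and the rest was Grin2b, from 3845 fragments. The same held at lower summed levels (0.304 and 0.483 FPKM) in samples 3 and 4, where Grin2b made up 96.5 and 98.4%. Samples 1, 3 and 4 all belong to samples 1 to 4, which the study sets apart for lower expression. Whether library quality took part in this make-up was not tested. The median share was 24% for Grin2b, 17.9% for Grin2d and 3.53% for Grin2a, with SDs between neurons of 41.3, 28.3 and 31.4 percentage points. The Grin2a median was the value of sample 3, one of the 5 low neurons, and was 28.3% without sample 1, 4, 5 or 10. The order of Grin2b and Grin2d turned as well: their medians were 22.6 and 25.4% without sample 1, 3 or 4, 21.2 and 32.9% with at least 1000 Grin2 fragments, and 17.6 and 39% without samples 1 to 4.

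**Figure D3:**
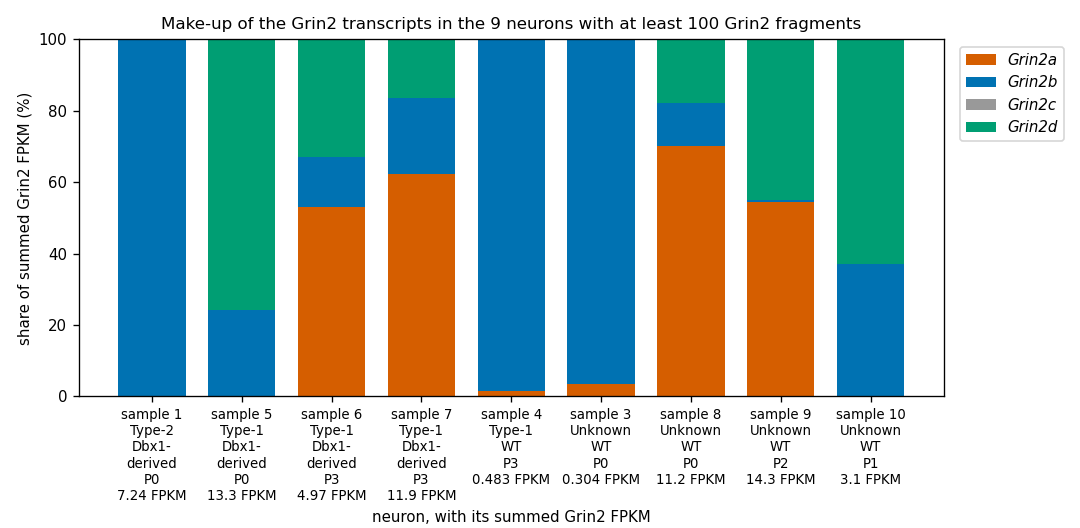
Share of each Grin2 gene in the summed Grin2 FPKM (vertical axis, percent) of the 9 neurons with at least 100 Grin2 fragments (horizontal axis, with the summed Grin2 FPKM under each). The bars fall into 3 kinds, nearly all Grin2b (samples 1, 3 and 4), Grin2d with Grin2b (samples 5 and 10) and Grin2a with Grin2d and up to 21.2% Grin2b (samples 6 to 9). The neurons of the first kind all belong to samples 1 to 4, which the study sets apart for lower expression.

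Age was set beside the pairwise balance. Grin2b made up 100% (99.8 to 100, exact 95% binomial interval of the fragments carried to the per-length scale) of Grin2a and Grin2b together in sample 1 at P0. It made up 96.5% in sample 3 and 99.3% in sample 5, also at P0, but 14.7% (13.8 to 15.6) in sample 8 of the same age. At P1 the share was 99.8% in sample 10. At P2 it was 94.1% (83.9 to 98.7) in sample 2 and 0.926% (0.662 to 1.26) in sample 9. At P3 it was 98.4% in sample 4, 21% (19.4 to 22.7) in sample 6 and 25.4% (24.3 to 26.5) in sample 7. Grin2a was thus the larger of the pair in 1 of 4 neurons at P0, 0 of 1 at P1, 1 of 2 at P2 and 2 of 3 at P3. The neurons on the Grin2b side at P2 and P3 were samples 2 and 4 alone, whose libraries held all 8 microglia markers. In both, no subunit gene reached 1 FPKM, and in sample 2 the pair rested on 69 fragments. Without them Grin2a was the larger in 3 of 3 neurons at P2 and P3 (samples 6, 7 and 9), and P0 alone held both kinds. That choice was made after seeing the data, and it kept sample 3 at P0, whose Grin2 genes summed to 0.304 FPKM. Without samples 1 to 4, which the study sets apart for lower expression, P0 held samples 5 (99.3%) and 8 (14.7%) alone, on opposite sides. Transmitter genes differed between the sides too. On the Grin2a side, Slc17a6 was at 158, 156 and 230 FPKM in samples 6, 7 and 8, and Slc18a3 at 444 in sample 9. On the Grin2b side, Gad1 was at 71.8, 37.2 and 92 FPKM in samples 1, 3 and 10, but sample 5 had Slc17a6 at 101. Samples 6 and 7 were also both Type-1 and Dbx1-derived. Whether age, type, line or transmitter genes took part was not tested. Against Grin2d, the Grin2b share was 24.1% in sample 5, 40.2% in sample 8, 36.9% in sample 10, 1.12% in sample 9, 29.9% in sample 6 and 56.3% in sample 7, and 94.6% or more in samples 1 to 4. Among the 6 neurons with Grin2d at 1 FPKM or more, Grin2b was thus the lesser gene in 5. In fragments, not divided by length, it was the larger in 5 of the 6, since the Grin2d gene is shorter.

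**Figure D4:**
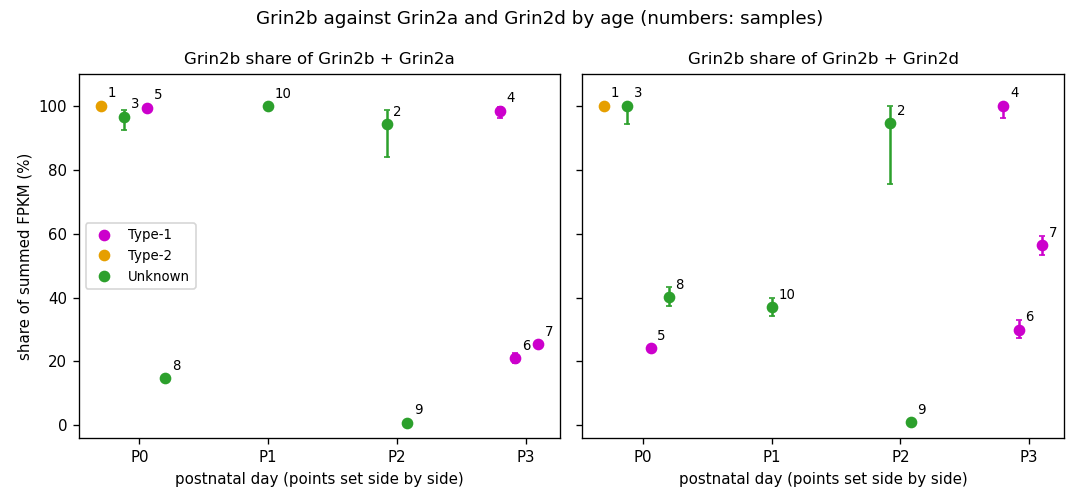
Grin2b share (vertical axis, percent of the summed FPKM of the pair) against Grin2a (left) and Grin2d (right) by postnatal day (horizontal axis), 1 point per neuron with its sample number and an exact 95% binomial interval, coloured by type. On the left, 4 neurons lie at 25.4% or less and 6 at 94.1% or more. The high points at P2 and P3 are samples 2 and 4, in which no subunit gene reached 1 FPKM, and without them P0 alone holds both kinds. Without samples 1 to 4, P0 holds samples 5 and 8 alone, on opposite sides. Age was not separated from type, line or transmitter genes.

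The ratio of Grin1 to summed Grin2 showed how far the obligate subunit and its partners went together. It was 0.5 in sample 1, 0.345, 1.5 and 1.21 in samples 5, 6 and 7, and 0.322 and 0.433 in samples 8 and 9. In sample 3 it was 34.5, since Grin1 was at 10.5 FPKM and the Grin2 genes summed to 0.304. In samples 4 and 10 it was 0.0145 and 0.00327, where Grin1 rested on 2 and 3 fragments. The median over the 9 neurons was 0.433. With the length of the longest coding transcript of each gene in place of the deposited length it was 0.801, since the deposited length exceeds the transcript length by more in Grin1 than in any Grin2 gene. Over all 7 genes, Grin3a made up 87% of the summed FPKM in sample 10, 59.2% in sample 1, 52.6% in sample 5 and 42.7% in sample 7, and 18.7 and 11.2% in samples 8 and 9. In the remaining 4 neurons it made up 3.54% or less, and the median share over 10 neurons was 15%. It was 30.7% without samples 1 to 4, and the same with at least 1000 fragments on the 7 genes, and 41% of the levels summed over neurons.

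Members that went together were sought over the 10 neurons, as a description, since each pair shares libraries and depth. Grin2b and Grin3a had Pearson's r = 0.77 of log2(FPKM + 1), the highest of the 10 pairs over all 10 neurons, and Spearman's rho = 0.61, which Grin1 with Grin2a and Grin2a with Grin2d also had. Without samples 1 and 5, the farthest from the median of Grin2b, r was 0.73, and without sample 4 it was 0.76. All 5 neurons with Grin2b at 1 FPKM or more also had Grin3a at that level, 4 had neither at that level, and sample 9 had Grin3a alone. This rests on the limit. The 4 neurons, samples 2, 3, 4 and 6, held 66, 227, 348 and 547 fragments of Grin2b. Of Grin3a they held 10, 6, 1 and 3. Grin1 and Grin2a had r = 0.54 and rho = 0.61, and each of the 4 neurons with Grin2a also had Grin1. Without samples 4 and 10, the farthest from the median of Grin1, r fell to 0.4. Grin2a and Grin2b had r = -0.1 and rho = -0.09, and 5 neurons had 1 of the 2 alone, but the sign rested on single neurons, since r was 0.13 without sample 1 and 0.09 without sample 9. Grin2a and Grin2d had r = 0.45, which was 0.8 without sample 5, where Grin2b and Grin3a had 0.73, and all 4 neurons with Grin2a also had Grin2d. The 4 neurons with neither were samples 1 to 4, which the study sets apart for lower expression. Grin2d was detected in each of samples 5 to 10, with or without Grin2a. For this pair r was not taken without samples 1 to 4, and whether library quality took part was not tested. Of the 10 pairs formed by the 5 detected genes, the remaining 6 had r between 0.08 and 0.49. Leaving out 1 neuron turned the sign for Grin1 and Grin3a (-0.11 to 0.39), Grin2a and Grin3a (-0.12 to 0.21) and Grin2b and Grin2d (-0.15 to 0.54).

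Across the 8891 genes detected in 4 neurons or more, those most like Grin1 by Pearson's r were Tmem147 (0.96), Txndc11 (0.94), Ypel5 (0.91), Ifitm2 (0.88) and Mest (0.87). For Grin2b they were Alkbh1 (0.96), Ing1 (0.95), Fam13b (0.95), Morn1 (0.94) and Tox4 (0.94). For Grin2d they were Opa1 (0.96), 1700025G04Rik (0.94), Tmem63b (0.94), Entpd4 (0.93) and Cd99l2 (0.93), and for Grin3a Raph1, Magel2 and Scaf4 (each 0.94), Mpp3 (0.93) and Nampt (0.92). No other subunit gene was among these. The points are the same 10 libraries throughout, so these values describe likeness over 10 points and no more.

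The labels were followed for the mouse line, which the study's figure legends give differently for some neurons. Set side by side by label, 0 of the 5 subunit genes that reached 1 FPKM in a neuron had ranges that did not overlap between Dbx1-derived and WT neurons. Among the 16546 genes that reached that level in at least 1 neuron, 1.04% lay wholly higher in Dbx1-derived neurons and 0.792% wholly higher in WT neurons. Between Type-1 and Unknown neurons the count was also 0 of 5, beside 0.58% of genes higher in Type-1 and 0.393% higher in Unknown neurons. Between P0 and the pooled P2 and P3 neurons it was 0 of 5, beside 0.284% and 0.381%. Without sample 4 the counts stayed at 0, while 1.2% of genes lay higher in Dbx1-derived and 1.03% in WT neurons, 2.94% in Type-1 and 1.24% in Unknown neurons, and 0.532% at P0 and 0.852% at P2 and P3. Without sample 6, Grin2b lay higher in the 3 remaining Dbx1-derived neurons (2.53 to 7.24 FPKM) than in the 6 WT neurons (0.0729 to 1.35 FPKM), which 1.73% of genes did as well, and 1.15% lay the other way. The Type-2 neuron had the highest Grin2b, 0 fragments of Grin2d and a Grin3a of 15.8 FPKM, and it is a single neuron. It belongs to samples 1 to 4, which the study sets apart for lower expression. Its Slc17a6 was at 0.26 FPKM, against 101 to 158 in samples 5, 6 and 7. Its Slc6a5, a glycine transporter gene, was at 146 FPKM, against 0.178 or less there. Type, transmitter genes and library cannot be told apart in this neuron.

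The NMDA genes were then set beside the other ionotropic glutamate receptors. The summed FPKM of the 7 NMDA genes was 26.6 in sample 1, 37.9, 12.4 and 45.9 in samples 5, 6 and 7, and 18.3, 23.1 and 23.8 in samples 8, 9 and 10. It was 0.493 in sample 4, 0.635 in sample 2 and 10.8 in sample 3. The 4 genes of AMPA receptors, which carry fast excitation, summed to between 39.3 and 177 FPKM in samples 1 and 5 to 10, above the NMDA sum in each of these 7 neurons, with a ratio of NMDA to AMPA of 0.108 to 0.588. In samples 2, 3 and 4 the AMPA genes summed to 0.316, 0.263 and 0.291 FPKM, below the NMDA genes. The 5 kainate receptor genes did not follow this split, with 48.7 and 18.4 FPKM in samples 2 and 3 and 2.13 FPKM in sample 4. In sample 3, Grin1 was therefore detected at 10.5 FPKM in a library where the AMPA genes and the other 6 NMDA genes were each at 0.293 FPKM or less. Its library held 9 of 10 astrocyte markers at 1 FPKM or more, with Gad1 at 37.2 FPKM, and the part of astrocyte RNA in its Grin1 was not tested.

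**Figure D5:**
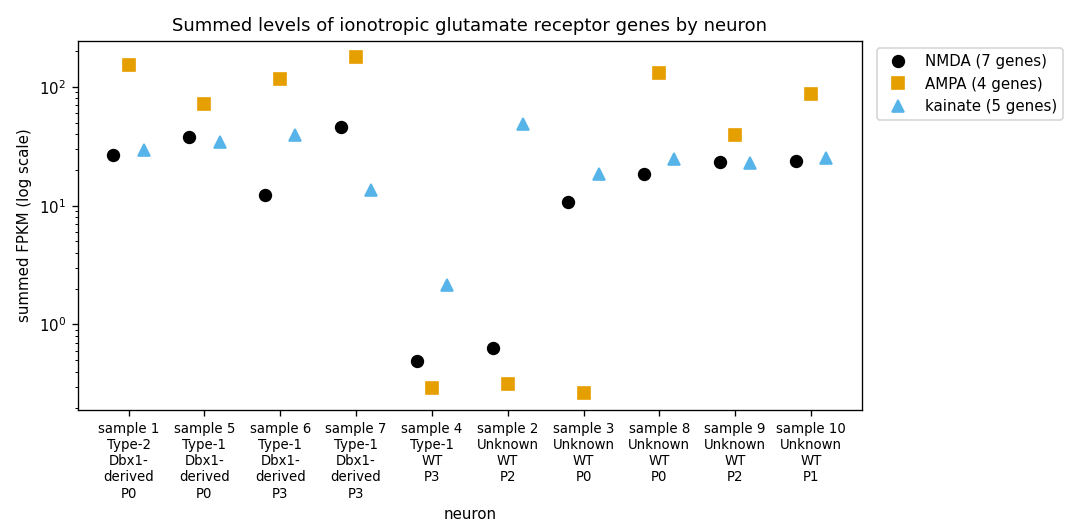
Summed FPKM (vertical axis, log scale) of the 7 NMDA, 4 AMPA and 5 kainate receptor genes in each neuron (horizontal axis). AMPA lies above NMDA in the 7 neurons where it is at 39.3 FPKM or more, and below it in samples 2, 3 and 4, where it is at 0.316 FPKM or less.

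Genes that work with the receptor differed by list. Of 17 scaffold and anchoring genes of the postsynaptic density, 8 were detected in 5 neurons or more, where 13.6% of all 55367 genes were. The same share stands beside the counts of the lists below. The median of medians of the scaffold list was 0.791 FPKM, where the median over all genes in the deposited files was 0. Dlg3, which encodes SAP102, a scaffold of immature synapses, had the highest median of the list (6.19 FPKM), while Dlg4, which encodes PSD-95, a scaffold of mature synapses, was detected in 2 neurons (1.93 FPKM in sample 9 and 1.7 FPKM in sample 10). Homer3 had a median of 0 FPKM and was detected in no neuron, and Neto1, an auxiliary protein of the receptor, in 5. Dlg4 and Neto1, above Slc17a6, Gad1 and Slc18a3, and below Camk2a, Camk2b, Fyn, Srr, Slc6a5 and Slc7a10, were singled out after their values were seen. Of 14 signalling partners, 9 reached that level. Calmodulin genes led, with Calm2 at a median of 1611 FPKM, and among the subunits of the calcium/calmodulin kinase Camk2b was at 27.4 FPKM whereas Camk2a, its counterpart of mature forebrain synapses, was detected in 2 neurons at 1.94 FPKM or less. Fyn, a kinase that acts on GluN2 subunits, was at 59.3 FPKM. Of 9 genes that carry the receptor towards the synapse, 8 reached 1 FPKM in at least 5 neurons, with Gipc1, an adaptor of membrane traffic, highest at a median of 52.8 FPKM, and Kif17, a motor known to carry GluN2B, had 0 fragments in all 10.

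Of 9 genes for the supply and removal of glycine and D-serine, 3 reached 1 FPKM in at least 5 neurons, beside 13.6% of all genes. Slc1a4, a neutral amino acid transporter, had the highest median (3.17 FPKM). Srr, which makes D-serine, was detected in 4 neurons, at 9.49 FPKM in sample 5, 5.56 in sample 6, 30.3 in sample 8 and 23.2 in sample 10, and the other 6 neurons had 0.666 FPKM or less. Slc6a5, the neuronal glycine transporter, was at 146 FPKM in sample 1 and 8.6 in sample 10, both with Grin3a at 15.8 FPKM or more, and did not pass 0.178 FPKM elsewhere, samples 5 and 7 included, where Grin3a was at 19.9 and 19.6 FPKM. Slc7a10, a transporter of D-serine and small amino acids, was highest in sample 2 at 151 FPKM, where the astrocyte markers summed to 3598 FPKM and no subunit gene reached 1 FPKM. Dao and Gldc, which break down D-serine and glycine, were detected in no neuron.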

How the data were processed

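The contents of 10 preBötC neurons were amplified (SMART-Seq v4), made into libraries (Nextera) and sequenced in pairs of 150 bases by the authors. Per the labels and the study's methods, the authors checked reads with FastQC 0.11.8, trimmed them with bbduk, aligned them with STAR 2.7.7a to mm10 (GRCm38) and counted fragments with featureCounts. Options for strand, overlap and reads with several matches are not given in the sources used here. The deposited counts are whole fragments per gene and not normalized. The deposited FPKM values are these counts divided by gene length in kilobases, also deposited, and by the fragments counted in units of 1000000, which was recomputed here to within 5.1e-11. Totals are in the report.

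Values were read as deposited with Python 3.11.15 and pandas 2.3.3. Detection meant 1 FPKM or more. Intervals were exact 95% Poisson for counts and exact 95% Clopper-Pearson for shares (SciPy 1.17.1), for counting error only, and a count of 0 was taken to allow 3. Shares were given for neurons with at least 100 Grin2 fragments. Correlations used log2(FPKM + 1). Ranges of a gene in 2 groups were called apart where every neuron of one lay above every neuron of the other, and the share of all genes called is given beside each count. Groups and mouse lines were taken from the labels, which name no animal, so no p-value was computed. Scripts were tested on simulated counts. Positions, coding stretches and 50-base words were read from GENCODE M21 (GRCm38). Genes named were the 7 members in all neurons, the genes with the highest and lowest median of each list, and the 5 most correlated genes for each of 4 members, and others are named as chosen after their values were seen. A gene of the scaffold list is not reported here by name. The members and lists were chosen with earlier results of these data known. Alternatives were another detection limit, unit, length, minimum, pseudocount and rank correlation, subtraction of fragments expected from other libraries, and leaving out each neuron or samples 1 to 4.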

Additional observations from a re-analysis of the deposited data

Results flagged for a closer look

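Within each group of 4 to 10 neurons, the highest or lowest value was called apart when its gap to the nearest value, divided by the range of the group, passed Dixon's 95% critical value. This held in 10 of 43 groups, which share neurons. The rate of about 1 in 20 that chance gives is set for normally spread values, so it is not claimed for any of the 10. In 8 of them, 1 value of 1 or 4 fragments stood over zeros and could not fail to be called. The remaining calls came from Grin2a and Grin3a, whose levels fell into separate clusters with no neuron between them.

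Grin2a at P0 was at 7.87 FPKM in sample 8 (3751 fragments), while the next of the 4 P0 neurons was at 0.0228 FPKM, a gap of 0.991 of the range. Sample 8 also had all 10 astrocyte markers at 1 FPKM or more, and their part in its Grin2a was not tested. Among the 4 Dbx1-derived neurons, Grin3a in sample 6 was lowest at 0.00776 FPKM (3 fragments), the next being at 15.8 FPKM, a gap of 0.927 of the range.

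The other 8 cases were the values above 0 of the silent members. Grin2c in sample 2 (0.0219 FPKM, 4 fragments) stood apart among the Unknown, the WT, the P2 and P3 and all 10 neurons, since each other neuron was at 0. Grin3b in sample 8 (0.0114 FPKM, 1 fragment) stood apart in the same way among the Unknown, the WT, the P0 and all 10 neurons.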

How the results depend on the processing

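Of 507 alternatives to 33 results, 483 kept the value within the spread between neurons, or a count within 1.5 times, and 18 results moved under none. A correlation was kept if it lay within its own range on leaving out 1 neuron, so leaving out 1 neuron could not move it. Nor could that move the detection counts, each of which it lowers by at most 1. The 483 therefore include outcomes fixed in advance. At 5 FPKM, detection fell to 4 neurons for Grin1, 1 for Grin2b and 2 for Grin2d. At 0.1 FPKM it rose to 8 for Grin2b, and with more than 3 fragments to 7 for Grin2a, 10 for Grin2b and 1 for Grin2c. The median of Grin1 was 11.5 in TPM and 39.9 in counts per 1000000 (CPM), those of Grin2b, Grin2d and Grin3a were 22.9, 12 and 36.9 CPM, which are other units by construction, and Grin1 was at 9.33 FPKM with the longest coding transcript. In detected neurons alone the median was 7.62 FPKM for Grin2a and 17.7 for Grin3a. Without samples 1 to 4, Grin2a had a median of 5.03 FPKM and a median share of 53.7%. Its share, 3.53% above, was 53% with at least 1000 Grin2 fragments and 38.5% from summed levels, and between 2.55 and 28.3% leaving out 1 neuron, so this median rests on which neurons are used: it was 28.3% without sample 1, 4, 5 or 10, 27.3% without sample 3 and 2.55% without sample 6, 7, 8 or 9. Spearman's rho was 0.03 for Grin1 and Grin2b, -0.13 for Grin2a and Grin3a (r = 0.08) and 0.61 for Grin2b and Grin3a, for which r was 0.7 with a pseudocount of 0.1. Leaving out 1 neuron, the count of subunit genes with ranges apart between Dbx1-derived and WT neurons ran from 0 to 1, the latter without sample 6. The causes were not tested. The transcript length, the highest rate between libraries and leaving out samples 1 to 4, sample 4, or samples 2 and 4 were chosen after seeing the data. No paired analysis was possible because the labels give no replicate numbers shared between groups and no test was made. Depth limits Grin2c and Grin3b, where 0 fragments allow 3, and 1 neuron per library cannot separate a neuron's level from the amplification of its contents.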
